A study of Mus musculus with 6 samples.

Results

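Inhibitory checkpoint receptors are surface proteins that hold back lymphocytes. The genes described here are 10 receptors taken by name, namely Pdcd1, Ctla4, Lag3, Havcr2, Tigit, Klrg1, Cd160, Btla, Cd200r1 and Cd96. Of these, 9 had a column among the 17546 genes of the deposited table, and Lag3 was not analysed here. The study measured mRNA in group 2 innate lymphoid cells (ILC2s), antigen-receptor-free lymphocytes that make type 2 cytokines, sorted from lungs of BALB/c mice. All cells came from mice given 3 intranasal doses of 1 µg of recombinant mouse IL-33, and all were kept in IL-2 and IL-7 (10 ng/mL of each). The 3 Yoda1 libraries received 10 µM Yoda1, a chemical opener of the mechanically gated calcium channel Piezo1, for 24 h, and the 3 control libraries received DMSO. The comparison asks what opening this channel does to the ILC2 transcriptome. Whether the 3 libraries of a group are separate animals or cultures is not stated, and the p-values therefore describe only the spread among the libraries, which may be technical.

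Most of these receptors are single-pass membrane proteins. When their ligand is bound, the cytoplasmic tails of PD-1, BTLA and TIGIT recruit phosphatases that remove activating phosphates from nearby signalling proteins, whereas CTLA-4 competes with the activating receptor CD28 for CD80 and CD86. Several receptors share ligands: TIGIT and CD96 bind CD155, and BTLA and CD160 bind HVEM. KLRG1 binds cadherins and is a familiar marker of ILC2s activated by alarmins, and PD-1 is known to restrain ILC2 proliferation and cytokine output.

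The libraries held between 14214048 and 31627519 counts. Levels are CPM (counts divided by the scaled library total), given in the order DMSO 1, 2 and 3, then Yoda1 4, 5 and 6, and each change is a log2 ratio, Yoda1 relative to DMSO, with its standard error (SE). A gene was called at a Benjamini-Hochberg adjusted p under 0.05 in edgeR's quasi-likelihood test over 13325 genes. The ILC2 markers Gata3 (781 to 1032 CPM), Il1rl1 (556 to 700 CPM) and Il5 (5308 to 8429 CPM) were abundant in every library, while Thy1 was at 0.115 to 2.87 CPM. Of the 13 ILC2 markers Arg1 rose and Il2ra fell in edgeR, where 0.57% of all tested genes rose and 0.923% fell. DESeq2 and limma voom, fitted as alternatives, also called Il5 and Il17rb higher and Il7r lower. DESeq2 called 4 markers higher and 2 lower, where it called 2.92% and 3.43% of all genes. Limma voom called 3 higher and 2 lower, where it called 0.908% and 1.34% of all genes. DMSO 2 and DMSO 3 stood apart by the airway secretory gene Scgb1a1, at 301 and 295 CPM, against at most 0.0597 CPM in the other libraries. In bulk RNA a smaller number of cells of a type and less RNA per cell cannot be told apart.

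Pdcd1, which encodes PD-1, was the member that rose with Yoda1. Its levels were 413, 438 and 438 CPM with DMSO and 835, 936 and 881 CPM with Yoda1. Every Yoda1 library lay far above every DMSO library, and the spread within each group was small, at 430 ± 14 against 884 ± 51 CPM (SD, n = 3 per group). This was a 2.06-fold difference of the means or 1.04 on the log2 scale with an SE of 0.082 (adjusted p = 0.00141, edgeR quasi-likelihood test). Pdcd1 ranked 6 of 13325 genes by p, 4 among those higher with Yoda1, and 33 called genes had a larger positive log2 change. By CPM it stood at rank 328 of the tested genes with DMSO and at rank 104 with Yoda1. The call held without each library in turn, but it was lost with the suffix of the sample labels (0 for DMSO 1 and 2, 45 to 48 for the others) as a term (log2 change 1.01, edgeR quasi-likelihood test, adjusted p = 0.145) and with libraries of 1 label number summed (1.05, adjusted p = 0.0885). In the suffix fit DMSO 3 is the only DMSO library that shares the suffix level of the Yoda1 libraries, so that value rests on it. Against DMSO 1 alone, which had no count of Scgb1a1, the log2 change was 1.09. DMSO 1 was not free of epithelial RNA: the epithelial marker Sftpc was at 15.2 CPM there, against at most 0.568 CPM in the other libraries. With 1 DMSO library the spread comes from the Yoda1 libraries alone, and no call is read from that fit. Pdcd1 lies on chromosome 1 at 94038305 to 94052553, minus strand (GRCm38, GENCODE).

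**Figure D1:**
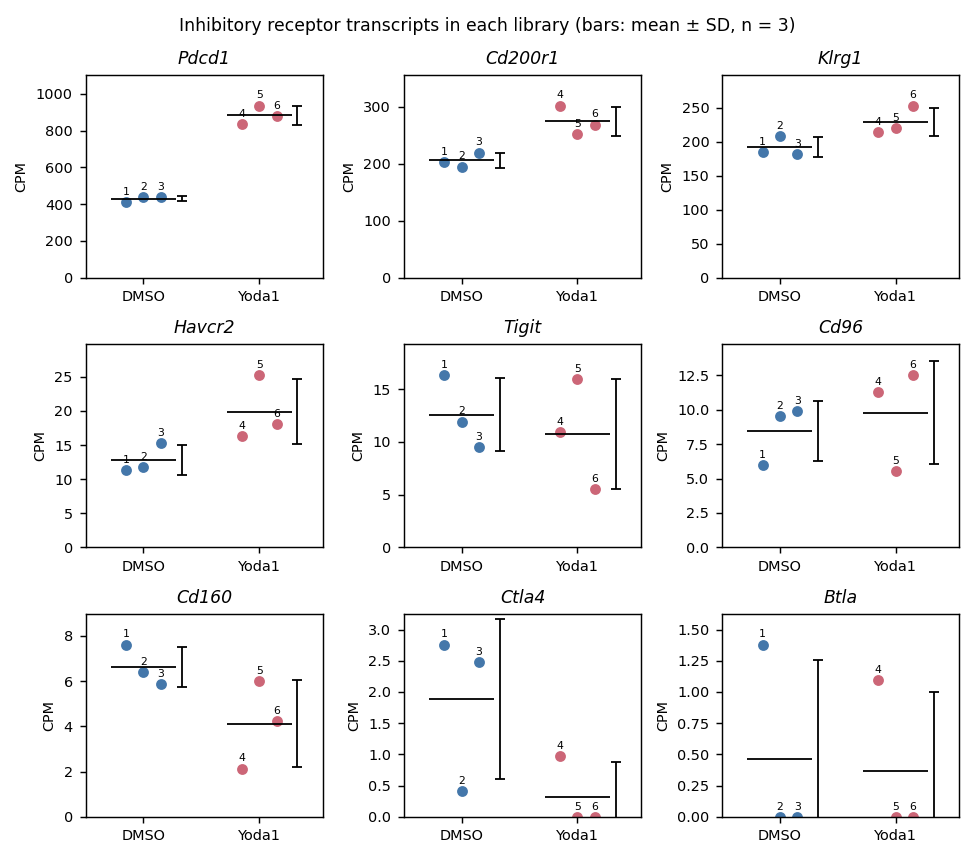
CPM of the 9 receptor genes in each library, on linear axes that start at 0 (DMSO blue, Yoda1 red; points carry the library number, lines are means and bars SD, n = 3, with bars that would pass below 0 clipped by the axis). The Yoda1 libraries sit wholly above the DMSO libraries for Pdcd1, Cd200r1, Klrg1 and Havcr2, with a wide gap for Pdcd1 and narrow gaps for Klrg1 and Havcr2.

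Of the 8 members tested, 1 rose, 0 fell and 7 did not pass; over all tested genes 1.49% were called, 0.57% higher and 0.923% lower. DESeq2 called 2 members higher and 0 lower (Pdcd1 and Cd200r1), where it called 6.35% of all genes, 2.92% higher and 3.43% lower. Limma voom called 1 higher and 0 lower (Pdcd1), where it called 2.25% of all genes, 0.908% higher and 1.34% lower. Their median log2 change was 0.23, against 0.01 over all tested genes. At an unadjusted p under 0.05, 4 members were higher and 0 lower, where 7.39% of all tested genes were higher and 7.11% lower. The same 4 members were those whose groups did not overlap, Pdcd1, Cd200r1, Klrg1 and Havcr2, all of them higher with Yoda1, where 10.6% of all tested genes were separated in that direction. Summed over the 9 genes, members took 846 to 882 CPM with DMSO and 1393 to 1462 CPM with Yoda1. Without Pdcd1 the sums were 433 to 445 and 526 to 562 CPM.

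The start-proximal sequence of the 2 members among these 4 that RefSeq's promoter table (GRCm38.p6) held is shown because these genes differed most in fold with no overlap between groups. Each run is the 250 bases before the annotated start, read on the gene's own strand, at chr1:94052554-94052803 (minus) for Pdcd1 and chr11:46454681-46454930 (plus) for Havcr2. Capitals mark matches on either strand to GGAAA (core of NFAT sites), TGANTCA (AP-1), AAAGGTCA (NR4A) or GATAA (GATA factors).
Pdcd1: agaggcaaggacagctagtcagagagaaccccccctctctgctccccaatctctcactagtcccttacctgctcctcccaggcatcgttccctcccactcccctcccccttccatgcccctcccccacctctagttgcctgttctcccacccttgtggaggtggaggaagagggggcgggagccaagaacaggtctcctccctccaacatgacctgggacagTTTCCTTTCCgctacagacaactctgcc
Havcr2: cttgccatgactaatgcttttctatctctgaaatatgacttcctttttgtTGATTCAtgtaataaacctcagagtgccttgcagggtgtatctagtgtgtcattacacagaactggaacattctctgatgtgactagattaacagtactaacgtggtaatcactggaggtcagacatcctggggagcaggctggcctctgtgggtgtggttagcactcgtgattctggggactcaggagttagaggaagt
The Pdcd1 window held a tandem pair of GGAAA on the opposite strand, 28 to 24 and 23 to 19 bases before the start, in a stretch of 60.4% GC. GGAAA occurred in 55.6% of all 32851 windows of this length, whose median GC was 52.4%. The Havcr2 window held 1 AP-1 match, 200 to 194 bases before the start, a motif found in 6.75% of all windows. Neither window held the NR4A or GATA letters, which occurred in 1.34% and 22.6% of all windows. These matches describe the letters only and show no binding.

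Cd200r1 encodes the inhibitory receptor for CD200, which signals through DOK adaptors rather than phosphatases. It was at 203, 195 and 219 CPM with DMSO and at 302, 252 and 268 CPM with Yoda1. The groups did not overlap, and the means were 206 ± 13 and 274 ± 25 CPM, a log2 change of 0.42 (SE 0.11). It did not pass in edgeR (quasi-likelihood test, adjusted p = 0.11) or limma voom (adjusted p = 0.0774), but DESeq2 called it higher with the same size of change (0.42, adjusted p = 0.00576). Cd200r1 was the member with counts that were not whole, within 0.01, in all 6 libraries. Its related activating receptors, named after their values were seen, were low: Cd200r4 was at 7.60 to 9.66 CPM with DMSO and 15.9 to 17.5 CPM with Yoda1, and Cd200r3 at 3.17 to 9.12 CPM over the 6 libraries. Neither passed in edgeR or limma voom, and DESeq2 called Cd200r4 higher (log2 change 0.96, adjusted p = 0.0102). The split of reads within this family is uncertain. Cd200r1 lies on chromosome 16 at 44765736 to 44794978, plus strand.

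Klrg1 encodes the cadherin receptor KLRG1. It was at 185, 209 and 182 CPM with DMSO and at 214, 221 and 253 CPM with Yoda1. The highest DMSO library and the lowest Yoda1 library were close together. The log2 change of 0.26 (SE 0.11) did not pass (edgeR quasi-likelihood test, adjusted p = 0.343). Klrg1 lies on chromosome 6 at 122270596 to 122282882, minus strand.

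Havcr2 encodes TIM-3, a receptor for galectin-9 and HMGB1. It was at 11.4, 11.8 and 15.3 CPM with DMSO and at 16.3, 25.3 and 18.1 CPM with Yoda1. DMSO 3 and Yoda1 4 were nearly level, and Yoda1 5 was the highest. The log2 change of 0.63 (SE 0.26) did not pass (edgeR quasi-likelihood test, adjusted p = 0.316). Havcr2 lies on chromosome 11 at 46454935 to 46481255, plus strand.

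TIGIT and CD96 bind the same ligand as the activating receptor CD226. Tigit was at 16.3, 11.9 and 9.48 CPM with DMSO and at 10.9, 15.9 and 5.49 CPM with Yoda1, with groups that overlapped widely (log2 change -0.22, SE 0.41). Cd96 was at 5.96, 9.56 and 9.90 CPM with DMSO and at 11.3, 5.54 and 12.5 CPM with Yoda1, again with overlap (log2 change 0.21, SE 0.39). The sign of both changed with the fit, and neither passed (edgeR quasi-likelihood test, adjusted p = 0.857 and 0.861). Yoda1 6 was the lowest library for Tigit and the highest for Cd96. Cd226 was at 43.9 to 46 CPM with DMSO and 29.6 to 49.4 CPM with Yoda1. Per exon length, the log2 ratio of Tigit to Cd226 was 0.53 ± 0.37 with DMSO and 0.42 ± 1.02 with Yoda1 (SD, n = 3 each; exact two-sided permutation test, p = 1). The log2 ratio of Cd96 to Cd226 was -1.29 ± 0.42 and -0.92 ± 0.75 (SD, n = 3 each; exact two-sided permutation test, p = 0.4). With 3 libraries against 3 the smallest p this test can give is 0.1, so it could not have called either of the 2 ratios, and these values do not show that the ratios were alike.

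Cd160, whose product binds HVEM, was at 7.62, 6.41 and 5.87 CPM with DMSO and at 2.13, 6.00 and 4.24 CPM with Yoda1. Yoda1 5 reached the DMSO range, and the log2 change of -0.68 (SE 0.44) did not pass (edgeR quasi-likelihood test, adjusted p = 0.534). Its exons share 68 bases with the antisense gene Pdzk1, which was not analysed here, and reads from both cannot be told apart where the strand setting is not given. Cd160 lies on chromosome 3 at 96798763 to 96829351, minus strand.

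Ctla4 and Btla were near the limit of detection. Ctla4, the receptor that takes CD80 and CD86 from CD28, had 50, 13 and 35 counts with DMSO and 15, 0 and 0 with Yoda1. These are 2.76, 0.410 and 2.48 CPM against 0.968, 0 and 0 CPM, where a count of 0 allows up to 0.173 and 0.179 CPM in Yoda1 5 and 6 (3 counts, counting error only). The gene stood over the filter level of 0.581 CPM in 3 libraries, DMSO 1, DMSO 3 and Yoda1 4, and DMSO 2 and Yoda1 4 overlapped. Its log2 change of -2.53 had an SE of 1.5 and did not pass (edgeR quasi-likelihood test, adjusted p = 0.493). Btla, the other HVEM receptor, had 25 counts in DMSO 1, 17 in Yoda1 4 and 0 in the other 4 libraries, and was not tested because of its low counts. A count of 0 there allows from 0.0947 CPM in DMSO 2 to 0.212 CPM in DMSO 3. Ctla4 lies on chromosome 1 at 60887000 to 60915832, plus strand.

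**Figure D2:**
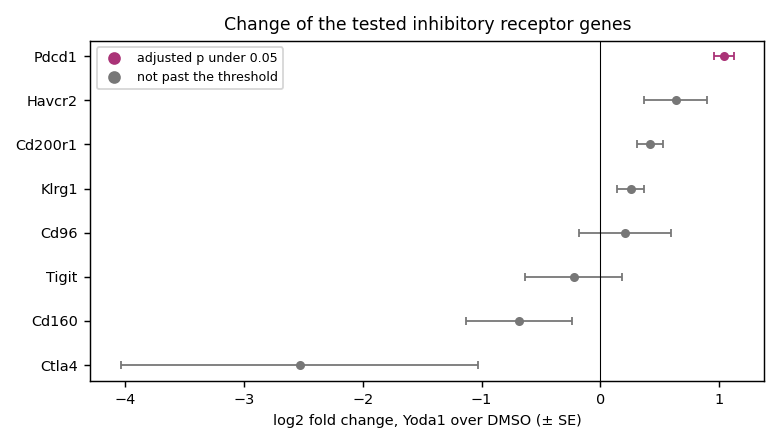
Log2 fold change of Yoda1 over DMSO with its SE for the 8 receptor genes that were tested (purple, adjusted p under 0.05; grey, not past it). Pdcd1 stands alone past the threshold at 1.04, and Ctla4 has the widest error, 1.5, at -2.53.

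Levels of different genes were compared per kilobase of exon (CPM per kb, GENCODE exon union). With DMSO the order was Pdcd1 (223 ± 7), Klrg1 (136 ± 10), Cd200r1 (61.4 ± 3.8), Tigit (13.7 ± 3.8), Havcr2 (4.71 ± 0.79), Cd96 (3.88 ± 1.00), Cd160 (2.51 ± 0.34), Ctla4 (0.808 ± 0.550) and Btla (0.135 ± 0.235; SD, n = 3 throughout). Neighbours in that order did not overlap, except for Havcr2 with Cd96, Cd96 with Cd160 and Ctla4 with Btla. With Yoda1 the order was the same, with Pdcd1 at 458 ± 26 and Klrg1 at 162 ± 15 CPM per kb (SD, n = 3). There, Tigit overlapped Havcr2 and Ctla4 overlapped Btla. Tigit, Cd200r1, Btla and Cd96 lie within 2.47 Mb on chromosome 16, between 43648867 and 46120251, yet their length-scaled levels with DMSO ran from 0.135 to 61.4 CPM per kb.

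**Figure D3:**
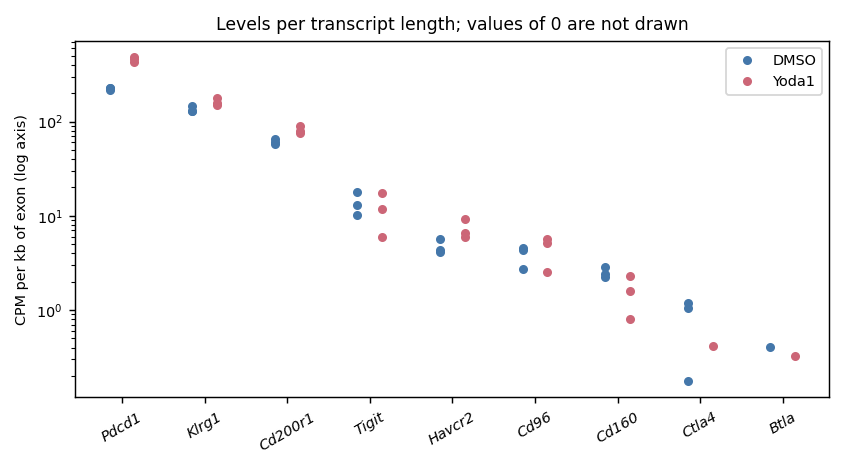
Length-scaled level (CPM per kb of exon, log axis) of each receptor gene in each library, with DMSO in blue and Yoda1 in red; values of 0 cannot be drawn on this axis. Pdcd1, Klrg1 and Cd200r1 form the upper group in both conditions, at 61.4 CPM per kb or more on average, and the other 6 genes lie at 13.7 CPM per kb or less.

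Genes whose levels over the 6 libraries ran closest to those of Pdcd1 were sought among 9020 tested genes of at least 5 CPM, by the root mean square difference of centred log2 CPM. Among the nearest were Hilpda (0.083), a lipid droplet protein gene, Plscr1 (0.099), a phospholipid scramblase gene, Gimap4 (0.109), a lymphocyte GTPase gene, and Arg1 (0.112), which encodes arginase. Hilpda stood at 119, 121 and 116 CPM with DMSO and 201, 260 and 248 CPM with Yoda1. Each of these 4 rose, with log2 changes from 0.91 for Gimap4 to 1.08 for Plscr1, as their choice by likeness to Pdcd1 requires. Of 6 fits that left out 1 library, Plscr1 passed in 5, Arg1 in 3, Hilpda in 2 and Gimap4 in 0.

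Ligands of the receptors came from a list of 21, of which 18 were in the table and 15 were tested. Of those 15, 1 rose, 0 fell and 14 did not pass, where 0.57% of all tested genes rose and 0.923% fell. The median log2 change of the 15 was -0.17, against 0.01 over all tested genes. The one that rose was Lgals3, galectin-3, a ligand of LAG-3, at 993, 993 and 1004 CPM with DMSO and 1416, 1554 and 1931 CPM with Yoda1 (log2 change 0.71, SE 0.11, edgeR quasi-likelihood test, adjusted p = 0.0205). It kept that call in 2 of the 6 fits that left out 1 library, those without Yoda1 4 and without Yoda1 6, and lost it with the suffix term (adjusted p = 0.328) and with summed libraries (adjusted p = 0.195). The PD-1 ligands were low and overlapped between groups: Cd274 (PD-L1) was at 5.24 to 12.0 CPM with DMSO and 5.19 to 13.6 CPM with Yoda1, and Pdcd1lg2 (PD-L2) at 3.11 to 7.34 and 4.90 to 9.35 CPM. Cd80 was at 0.692 to 3.61 CPM over the 6 libraries, and Cd86, at 0 to 1.33 CPM, was too low to test.

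For TIM-3, Lgals9 (galectin-9) was at 368 to 380 CPM with DMSO and 277 to 336 CPM with Yoda1, with no overlap, and Hmgb1 was at 1262 to 1425 and 1057 to 1389 CPM. For the TIGIT and CD96 ligand CD155, Pvr was at 5.16 to 8.44 and 3.98 to 8.83 CPM, and Nectin2 was at 0 to 2.97 CPM over all libraries. H2-Aa, a chain of MHC class II, to which LAG-3 binds, was at 6.97 to 12.8 CPM with DMSO and 3.23 to 5.07 CPM with Yoda1. The class II genes H2-Ab1 and H2-Eb1, named after their values were seen, overlapped between groups. H2-Ab1 was at 66.0 to 82.1 CPM with DMSO and 75.4 to 91.2 CPM with Yoda1 (log2 change 0.14). H2-Eb1 was at 7.95 to 16.4 and 8.20 to 11.9 CPM (log2 change -0.29). Tnfrsf14, which encodes HVEM, was at 3.63 to 7.57 and 9.19 to 12.5 CPM. None of these passed in edgeR, DESeq2 or limma voom. Cdh1 (E-cadherin, bound by KLRG1) had counts in DMSO 2 and DMSO 3 alone, at 3.47 and 1.20 CPM, the libraries that also held Scgb1a1, and was too low to test in edgeR; DESeq2, which kept it, called it lower. Cd200 had counts in 2 libraries, at 0.0316 and 0.577 CPM.

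Counterparts are activating or related receptors that share a ligand or family with the members. Of the 7 counterparts tested, 0 rose, 1 fell and 6 did not pass in edgeR, where 0.57% of all tested genes rose and 0.923% fell. DESeq2 called the same gene lower and 2 higher, Cd200r4 and Tnfsf14 (LIGHT, a ligand of HVEM, adjusted p = 0.0316). It called 2.92% of all genes higher and 3.43% lower. Limma voom called 0 counterparts higher and 1 lower, where it called 0.908% of all genes higher and 1.34% lower. Icos, a costimulatory receptor of the same CD28 family as PD-1 and CTLA-4, was at 870, 849 and 863 CPM with DMSO and 504, 443 and 443 CPM with Yoda1 (log2 change -0.89, SE 0.084, edgeR quasi-likelihood test, adjusted p = 0.0042). The groups lay far apart; the call was lost without DMSO 3 (log2 change -0.90, adjusted p = 0.0522) and held in the other 5 fits that left out 1 library. It was also lost with the suffix term (adjusted p = 0.145) and with summed libraries (adjusted p = 0.134). Cd28, the activating rival of CTLA-4, was at 8.35 to 16.6 CPM with DMSO and 6.69 to 9.87 CPM with Yoda1, overlapped, and did not pass in edgeR, DESeq2 or limma voom.

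The machinery behind the receptors holds phosphatases, kinases and adaptors that carry their signals. Of 19 tested signalling genes 0 were called in edgeR, DESeq2 or limma voom. These called 1.49%, 6.35% and 2.25% of all tested genes, so few calls would fall in a list of this size. With edgeR 1 was higher and 0 lower before adjustment (p under 0.05), where 7.39% of all tested genes were higher and 7.11% lower. That one was Adam17, a protease that sheds LAG-3 and TIM-3, at 138 to 158 CPM with DMSO and 161 to 203 CPM with Yoda1. Ptpn6, which encodes the phosphatase SHP-1, was at 50.6 to 63.4 and 66.3 to 85.9 CPM, and Ptpn11, its relative SHP-2, named after its values were seen, at 53.1 to 61.2 and 43.9 to 68.5 CPM.

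Transcription factors known to act on checkpoint receptor genes or in lymphocyte exhaustion formed another list. Of 31 tested, 0 rose, 2 fell and 29 did not pass, where 0.57% of all tested genes rose and 0.923% fell. Of their log2 changes 24 were negative and 7 positive, where 51% of all tested genes were positive. The median was -0.32 against 0.01 over all tested genes. At an unadjusted p under 0.05, 12 were lower and 4 higher, where 7.11% of all tested genes were lower and 7.39% higher. DESeq2 called 7 lower and 2 higher, where it called 3.43% and 2.92% of all genes. Irf4, a factor induced by antigen-receptor signals in lymphocytes, was at 44.6 to 58.0 CPM with DMSO and 6.62 to 18.6 CPM with Yoda1 (log2 change -1.85, SE 0.36, edgeR quasi-likelihood test, adjusted p = 0.0493). Id3, an inhibitor of E proteins, was at 21.5 to 38.5 and 6.39 to 10.8 CPM (log2 change -1.79, SE 0.30, adjusted p = 0.0309). Each call was lost in 5 of the 6 fits that left out 1 library: Irf4 passed without Yoda1 6, and Id3 without Yoda1 4. Both were also lost with the suffix term (adjusted p = 0.397 and 0.358) and with summed libraries (adjusted p = 0.249 and 0.178). Further genes of this list are given that were chosen after their values were seen. Tox, a factor of exhausted T cells, was at 28.7 to 50.4 and 50.7 to 73.3 CPM, and Nr4a1 at 15.4 to 22.2 and 33.6 to 37.2 CPM. Tox2 went the other way from Tox, at 178 to 234 CPM with DMSO and 116 to 164 CPM with Yoda1 (log2 change -0.63). DESeq2 called Tox2 lower (adjusted p = 0.00718), and limma voom did not (adjusted p = 0.0725). Prdm1, which encodes BLIMP-1, was at 47.1 to 70.3 and 12.8 to 33.6 CPM, and Maf at 38.6 to 46.8 and 16.5 to 24.6 CPM. For each of these chosen genes the groups did not overlap, and none passed in edgeR. Over the 31 tested, groups did not overlap for 4 genes higher and 14 lower with Yoda1, where 10.6% and 12% of all tested genes did so. Tox passed in no tool, while Nr4a1 was called higher and Prdm1 and Maf lower by DESeq2 (adjusted p = 0.00183, 0.00124 and 0.000285) and by limma voom (adjusted p = 0.0486, 0.0349 and 0.0421).

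Of 17 other inhibitory receptors and enzymes tested, 0 rose, 1 fell and 16 did not pass, where 0.57% of all tested genes rose and 0.923% fell. The median log2 change of the 17 was 0.33, against 0.01 over all tested genes. The one that fell was Il10ra, the IL-10 receptor chain, at 120 to 129 CPM with DMSO and 51.6 to 79.8 CPM with Yoda1 (log2 change -0.88, SE 0.17, edgeR quasi-likelihood test, adjusted p = 0.0479). The call held in 1 of the 6 fits that left out 1 library, the one without Yoda1 6, and was lost with the suffix term (adjusted p = 0.352) and with summed libraries (adjusted p = 0.258).

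Other cells that carry these receptors were looked for by their markers. T cell markers, 6 of 10 genes in the table, summed to 39.9 to 43.4 CPM with DMSO and 31.0 to 36.2 CPM with Yoda1. Most of this was Cd3g (18.2 to 32.5 CPM). Foxp3 was at 2.31 to 7.70 CPM over the 6 libraries, Cd3e was at 0.346 to 2.69 CPM, and Trac was at 0 in 4 libraries. Tcf7 went the other way from the sum, at 0 to 1.64 CPM with DMSO and 0.577 to 4.58 CPM with Yoda1, with overlap. Natural killer and ILC1 markers summed to 154 to 210 and 43.9 to 63.3 CPM over 5 of 10 genes, through Gzma and Gzmb, which fell, with Eomes and Tbx21 at 0.835 CPM or less. Myeloid markers summed to 11.4 to 15.3 and 18.8 to 24.1 CPM over 7 of 12 genes, with Lyz2 at 1.29 to 4.91 and 6.32 to 11.2 CPM, Cd68 at 6.40 to 10.2 and 8.41 to 13.8 CPM and Csf1r at 0.331 CPM or less. Mast cell and basophil markers summed to 43.8 to 57.4 and 37.3 to 39.7 CPM over 5 of 8 genes, mostly Kit (24.7 to 46 CPM), with Mcpt8 at 0 to 4.30 CPM. B cell markers summed to 26.5 to 41.3 and 29.5 to 37.5 CPM over 3 of 7 genes, mostly Cd79b (22.8 to 39.8 CPM), with Ighm at 1.16 to 6.5 CPM. Epithelial markers summed to 91.0, 417 and 405 CPM in DMSO 1, 2 and 3 and 55.2 to 77.7 CPM with Yoda1 over 7 of 8 genes. Outside DMSO 2 and DMSO 3 this was mostly Epcam. Epcam was at 64.5 to 67.4 CPM with DMSO and 48.8 to 71.6 CPM with Yoda1, with overlap. Sftpa1 was at 3.75, 21.3 and 21.7 CPM with DMSO and 0 to 0.923 CPM with Yoda1, and Krt18 at 4.64 to 14.8 and 1.29 to 6.03 CPM. Stromal and endothelial markers were in the table for 2 of 7 genes, and summed to 20.2 to 34.6 and 20.8 to 28.8 CPM, nearly all of it Pecam1 (19.8 to 34.5 CPM). The myeloid sum was higher with Yoda1, as were Pdcd1 and Cd200r1, but not every myeloid marker went that way. Adgre1 was at 0.0552 to 1.67 CPM with DMSO and 0 CPM with Yoda1. The means of S100a8 (0.278 and 0.0398 CPM) and Itgam (0.176 and 0.0584 CPM) were also lower with Yoda1. Itgax was at 4.06 CPM in Yoda1 6 and at most 1.64 CPM elsewhere. Marker levels do not give the share of Pdcd1 that another cell type carries. The part of these other cells in the results was not tested.

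**Figure D4:**
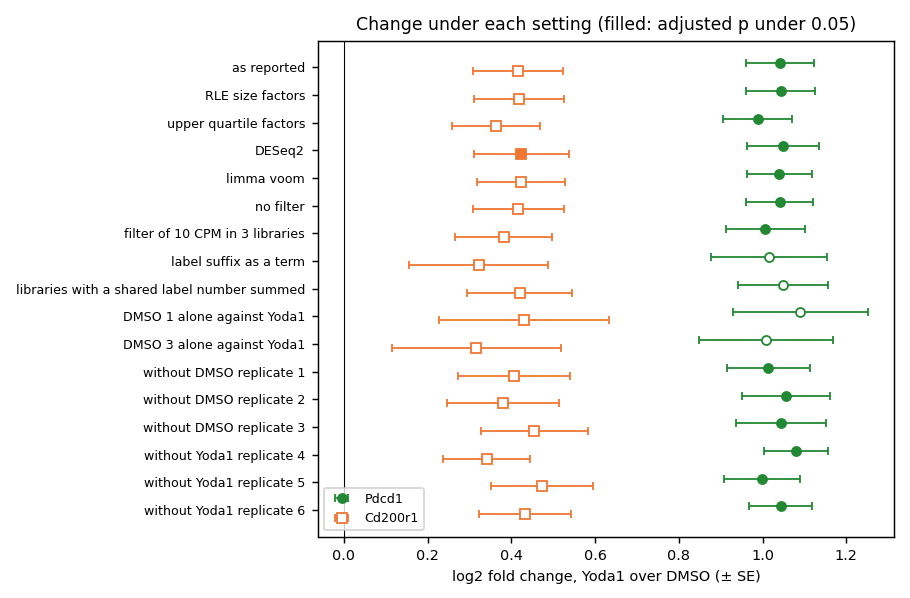
Log2 fold change with its SE for Pdcd1 (green circles) and Cd200r1 (orange squares) under each setting, filled where the adjusted p was under 0.05. The Pdcd1 change lay between 0.99 and 1.09 in all 16 alternatives and passed in 12; of the other 4, 3 compare Yoda1 with a single DMSO library, counting the suffix term. Cd200r1 lay between 0.32 and 0.47 and passed in DESeq2 alone.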

How the data were processed

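RNA-seq of 6 ILC2 libraries was analysed, 3 per group by the treatment in the sample labels; the design text and the table's own column call the control PBS. The authors deposited 1 table of expected counts (read estimates for each gene, with fractions), made with Partek software per its name, on mm10 per the submitters' processing notes. Not given in the sources used here: aligner, counter, annotation, filters, strand setting. Every gene had a total of at least 10.

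Counts were rounded and fitted with edgeR 4.0.16 (R 4.3.3): filterByExpr (minimum count 10, total 15), TMM, glmQLFit and glmQLFTest without covariates, Benjamini-Hochberg adjustment. SE is the change divided by the square root of F. DESeq2 1.42.0, limma 3.58.1 voom, other scalings and filters, the label suffix (0 against 45 to 48) as a term, summed libraries of 1 label number (19 for DMSO 2 and 3, 21 for Yoda1 4 and 5) and left-out libraries were alternatives. On simulated counts for Yoda1 against DMSO (13213 genes fitted), 43% of 100 genes changed 2-fold and 84% of 100 changed 4-fold were called. Within groups, every pair of libraries had a chi-square of 19.3 or more per degree of freedom, so none agreed within sampling noise.

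CPM uses the scaled total of tested genes. Exon lengths and positions came from GENCODE M21 (GRCm38, also called mm10). Members and lists were chosen with earlier results of these data known. Named genes were all members, 12 fixed ligands and 3 counterparts, the called genes of each list (at most 6, or the 2 of smallest p), and the 5 nearest profiles to Pdcd1, of which 1 is not reported here.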

Additional observations from a re-analysis of the deposited data

How the results depend on the processing

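The Pdcd1 log2 change lay between 0.99 and 1.09 in 16 alternatives and passed in 12; it did not pass with the label suffix as a term (1.01), with libraries of 1 label number summed (1.05), or against DMSO 1 alone (1.09) or DMSO 3 alone (1.01). With DMSO 1 or DMSO 3 alone, the lone library is assumed to vary like the Yoda1 libraries, and with the suffix term the Yoda1 change is set against DMSO 3, so these fits say little about stability. Counts of called genes changed more, and the cause was not tested. Over all genes 199 were called, against 918 with DESeq2, 448 with a filter of 10 CPM, 300 with limma voom, 3 with the suffix term, 1 with summed libraries, 0 against DMSO 1 alone (edgeR) and 2 against DMSO 3 alone. For the inhibitory receptors 1 became 2 with DESeq2. DESeq2 called 2 ligands (1 higher, 1 lower), 3 counterparts (2 higher, 1 lower), 9 regulators and 2 other inhibitory genes, against 1, 1, 2 and 1. It called 6.35% of all genes, against 1.49% in the main edgeR fit. The regulators gave 8 of 26 tested with the filter of 10 CPM, where 448 of 8518 genes were called. With voom the regulators gave 5 of 31, where 300 of 13325 genes were called. Without a filter they gave 1 of 35, where 133 of 17546 genes were called, and other inhibitory genes gave 0. With the suffix term, summed libraries or either DMSO library alone, the count was 0 in each of these lists and for the receptors.

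Leaving out 1 library gave 9 to 220 called genes, the lowest without DMSO 3, with 1 receptor in all 6 fits, 0 to 1 ligands, 0 to 1 counterparts, 0 to 2 regulators and 0 to 1 other inhibitory genes. Tigit turned from -0.22 to 0.18 with the suffix term, 0.18 against DMSO 3 alone, 0.0077 without DMSO 1 and 0.092 without Yoda1 6 (range over left-out libraries -0.62 to 0.092). Cd96 turned from 0.21 to -0.018 with the suffix term, -0.025 against DMSO 3 alone and -0.011 without Yoda1 6 (range -0.011 to 0.49). Havcr2, Klrg1 and Cd200r1 were higher in all 16 alternatives, and Ctla4 and Cd160 lower in all 15 that gave a value. No paired analysis was possible because the groups share no replicate number (DMSO 1 to 3, Yoda1 4 to 6). Ctla4 and Btla had few counts, and their counts of 0 allow up to 0.212 CPM by counting error alone. Btla had 0 counts in DMSO 2, the library with the largest total, and 25 in DMSO 1. The part of depth in these counts was not tested.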
